A study of Mus musculus with 24 samples.

Results

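The 10 genes described here encode the vascular endothelial growth factor (VEGF) ligands and receptors of the mouse: 5 ligands (Vegfa, Vegfb, Vegfc, Vegfd and placental growth factor, Pgf), 3 receptor tyrosine kinases (Flt1, Kdr and Flt4) and the 2 neuropilin coreceptors (Nrp1 and Nrp2). They were chosen by name, and each was matched to its Ensembl identifier, 10 of the 36109 genes listed for the lung and 10 of the 36595 listed for the retina. All 10 passed the filter on low counts in both tissues. RNA was sequenced from 12 whole lungs and 12 whole retinas, each from its own mouse, in 4 groups of 3 mice per tissue. Mice of the C57/B6 background that lack gasdermin D throughout the body (GSDMD-KO), made by a small CRISPR/Cas9 deletion within an exon of Gsdmd, were compared with wild-type (WT) littermates from heterozygous matings. Lungs came from postnatal day 15, after 85% oxygen or room air (21% oxygen) from day 1 to day 14. Retinas came from day 18, after 75% oxygen from day 7 to day 12 followed by a return to room air, or after room air throughout. The groups are named WT-RA, WT-O2, KO-RA and KO-O2 in each tissue, so "hyperoxia" means the end of continuous exposure in the lung and several days after its end in the retina. The study used these exposures as models of bronchopulmonary dysplasia and of retinopathy of prematurity.

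VEGF-A is the main growth and survival factor of endothelial cells and signals through KDR (VEGFR2), while FLT1 (VEGFR1) binds VEGF-A tightly and signals weakly, so that it also acts as a trap for the ligand. PGF and VEGF-B bind FLT1 alone among the receptor kinases, VEGF-C and VEGF-D act through FLT4 (VEGFR3) on lymphatic and sprouting vessels, and the neuropilins present VEGF to the kinases and also bind class 3 semaphorins. In the lung VEGF-A comes largely from the alveolar epithelium and maintains the capillary bed. In the retina it is made by glia and neurons, is induced by hypoxia through the HIF transcription factors, and drives both normal vessel growth and the neovessels of oxygen-induced retinopathy.

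Levels are given as CPM, the estimated count of a gene scaled to the size of its library, with no correction for transcript length made here. Totals ran from 28763661 to 29604254 estimated counts in the lung libraries and from 24863257 to 29093035 in the retina libraries. A gene passed a test at an adjusted p under 0.1 and a p under 0.05 in edgeR's quasi-likelihood test over all genes of the tissue (16819 in the lung and 19173 in the retina), with Benjamini-Hochberg adjustment, and errors of fold changes are standard errors on the log2 scale. Tissue markers matched the labels: the 7 rod photoreceptor genes summed to between 49800 and 73500 CPM in retinas and to at most 4.53 CPM in lungs, and of the alveolar type 2 genes Sftpc, Sftpb, Sftpa1 and Slc34a2 were under 1 CPM in every retina group. The knockout was visible in Gsdmd in the lung, with 32.1 to 42.3 CPM in the 6 WT lungs and 11.7 to 24.8 CPM in the 6 GSDMD-KO lungs. In the retina Gsdmd was low, and 2 libraries went against their labels: the library labelled WT-RA 2 had 0.40 CPM, below all GSDMD-KO retinas, and the library labelled KO-O2 3 had 2.95 CPM, above 2 WT retinas labelled WT-RA and 1 labelled WT-O2. The WT retinas below KO-O2 3 were WT-RA 2 itself, WT-RA 3 at 2.72 CPM and WT-O2 2 at 2.90 CPM, the last 2 close to its own level. A count over the whole gene checks a small deletion only in part. Lens genes also set 3 retina libraries apart, with summed levels of 25400, 84100 and 38200 CPM in the libraries WT-RA 2, WT-RA 3 and KO-RA 3 against 96.2 to 475 CPM in the other 9. All 3 were room-air retinas, so the retina results are also given without them and without the 2 libraries whose Gsdmd went against the label. Without the 3 lens libraries WT-RA 1 stands alone in its group, and KO-RA 1 and KO-RA 2 remain in theirs. Genes of the retinal pigment epithelium and of melanin summed to 228 to 705 CPM in WT-RA and 357 to 2840 CPM in KO-RA retinas. Their sum was 119 to 270 CPM in WT-O2 and 109 to 289 CPM in KO-O2 retinas. The part of such tissue in the retina results was not tested. Males, read from Y-linked genes, numbered 0 of 3 in WT-RA, 1 of 3 in WT-O2, 2 of 3 in KO-RA and 3 of 3 in KO-O2 lungs, and 3 of 3 in each room-air group and 1 of 3 in each hyperoxia group of retinas.

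In room air Vegfa was the most abundant of these RNAs in the lung, and Vegfb and Vegfa were in the retina. Compared per kilobase of the longest annotated coding transcript, Vegfa led the WT-RA lung at 208 CPM per kb ± 25.2 (SD, n = 3), with no overlap with the gene next in order. Nrp1, Vegfd and Kdr followed at 63.6, 62.0 and 60.7 CPM per kb, and mice of these neighbours overlapped. Vegfb (25.2 CPM per kb) and Flt1 (23.4) overlapped as well, and Flt4 (14.8), Nrp2 (11.0), Vegfc (6.87) and Pgf (2.92) followed, each pair of neighbours apart. In the WT-RA retina the ligands Vegfb and Vegfa led at 75.5 and 71.1 CPM per kb and overlapped. Kdr (6.09 CPM per kb) and Flt1 (2.78) came next, each apart from its neighbours, and the remaining 6 genes lay between 0.423 (Flt4) and 1.42 CPM per kb (Nrp1) with overlapping neighbours throughout. The order per kilobase assumes that the deposited counts were not already corrected for transcript length, which could not be settled. In CPM, Vegfa (mean 245) stood above Vegfb (96.7) in the WT-RA retina. The tables of the tissues were made separately, so no difference between tissues was tested.

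Hyperoxia in the lung changed the ligands in different directions and raised a coreceptor in both genotypes. In WT lungs 4 of the 10 genes passed the test, 3 higher and 1 lower, where 49.2% of all tested genes passed (24.5% higher and 24.7% lower). With a fold change of at least 2 as well, Pgf alone remained, where 11.6% of all genes did. In GSDMD-KO lungs 6 passed, 4 higher and 2 lower, against 46.7% of all genes (23.3% higher and 23.4% lower), and Pgf and Nrp2 did so with a fold change of at least 2, against 10.6%. The share of members that passed was thus near that of all genes in each genotype, and their median log2 change was -0.049 in WT and 0.0049 in GSDMD-KO lungs, beside medians of -0.0069 and -0.013 over all genes.

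Pgf, the ligand that binds FLT1 and is scarce in the resting lung, had the largest change of the 10 in both genotypes. Its level was 4.57, 5.95 and 7.67 CPM in the 3 WT-RA lungs and 33.6, 53.1 and 65.3 CPM in the WT-O2 lungs. In GSDMD-KO lungs it was 6.77, 6.96 and 6.27 CPM in room air and 51.5, 39.6 and 19.8 CPM after hyperoxia. Every exposed lung was above every room-air lung, and the exposed lungs spread widely, with the lowest value in KO-O2 3. The log2 fold change was 3.06 ± 0.38 (8.34-fold, adjusted p = 0.000152 by edgeR) in WT and 2.47 ± 0.37 (5.54-fold, adjusted p = 0.000585) in GSDMD-KO lungs. The ratio of Vegfa to Pgf per kb accordingly went from a mean of 76.1 in WT-RA to 8.01 in WT-O2 lungs and from 71.5 in KO-RA to 12.7 in KO-O2 lungs.

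Nrp2, a coreceptor of VEGF-C and of semaphorins, had the smallest standard errors of the 10 genes in the lung. It measured 75.2, 78.3 and 69.2 CPM in WT-RA, 143, 130 and 137 CPM in WT-O2, 67.8, 65.5 and 69.0 CPM in KO-RA, and 148, 146 and 145 CPM in KO-O2 lungs. Room-air and exposed lungs were separated by a wide gap in both genotypes. The log2 fold change was 0.88 ± 0.070 in WT (adjusted p = 2.76e-07 by edgeR) and 1.12 ± 0.071 in GSDMD-KO lungs (adjusted p = 3.99e-08).

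Vegfc, the lymphatic ligand, was lower after hyperoxia. It was 17.5, 18.9 and 14.2 CPM in WT-RA and 11.8, 9.84 and 11.2 CPM in WT-O2 lungs, and 13.2, 16.5 and 14.5 CPM in KO-RA and 8.22, 11.7 and 10.9 CPM in KO-O2 lungs, with no overlap within a genotype. It fell by 0.62 ± 0.15 on the log2 scale in WT (adjusted p = 0.00379 by edgeR) and by 0.52 ± 0.15 in GSDMD-KO lungs (adjusted p = 0.0125). Vegfd, the other ligand of FLT4 and per kilobase the second most abundant ligand of the lung, did not pass in either genotype, with log2 changes of 0.04 ± 0.11 and -0.22 ± 0.11. The GSDMD-KO change of Vegfd passed as lower in a fit of the compared groups alone and without KO-RA 1, WT-O2 3 or WT-RA 3 (lowest adjusted p = 0.0425 by edgeR).

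Vegfb, which signals through FLT1 and is most abundant in oxidative tissues, was 30.6, 26.7 and 39.6 CPM in WT-RA against 38.2, 40.9 and 41.5 CPM in WT-O2 lungs, where WT-RA 3 overlapped the exposed lungs. In GSDMD-KO lungs it was 30.2, 33.1 and 30.1 CPM in room air and 38.5, 36.9 and 37.8 CPM after hyperoxia, without overlap. The rise was 0.32 ± 0.11 on the log2 scale (adjusted p = 0.0372 by edgeR) in WT and 0.28 ± 0.11 (adjusted p = 0.0667) in GSDMD-KO lungs. The WT call was lost without WT-O2 3, WT-RA 1 or WT-RA 2 and in a fit of the compared groups alone, and the GSDMD-KO call without any of the 3 KO-O2 lungs, without KO-RA 1 or 3 and with a term for sex, with adjusted p of at most 0.173 and 0.163.

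Vegfa, the dominant ligand, was 787, 750 and 621 CPM in WT-RA and 604, 660 and 617 CPM in WT-O2 lungs, and 830, 785 and 756 CPM in KO-RA and 667, 591 and 698 CPM in KO-O2 lungs. Exposed and room-air lungs overlapped in WT, through WT-RA 3, and were apart in GSDMD-KO mice. Its log2 change was -0.20 ± 0.099 in WT (adjusted p = 0.123 by edgeR) and it fell by 0.28 ± 0.099 in GSDMD-KO lungs (adjusted p = 0.0371). Without WT-RA 3 the WT change passed (adjusted p = 0.0199), and without KO-O2 2 or KO-RA 1 the GSDMD-KO change did not (highest adjusted p = 0.170). The genotypes were not shown to differ, since the interaction of genotype and hyperoxia for Vegfa was -0.08 ± 0.14 (adjusted p = 0.965). The summed level of genes of the alveolar type 2 cell, an epithelial cell that makes surfactant, was also lower in every exposed lung than in any room-air lung. The 8 genes of that list, all above 1 CPM in every lung group, summed to 20200 to 22800 CPM in WT-RA, 14300 to 17300 CPM in WT-O2, 20800 to 22800 CPM in KO-RA and 14100 to 16600 CPM in KO-O2 lungs. Of them 0 passed as higher and 4 as lower in WT (median -0.25), and 0 and 5 in GSDMD-KO lungs (median -0.30). The 10 alveolar type 1 genes, of the other alveolar epithelial cell, summed to 5620 to 6300 CPM in WT-RA and 5360 to 6000 CPM in WT-O2 lungs. Their sum was 5600 to 5960 CPM in KO-RA and 5960 to 6290 CPM in KO-O2 lungs. Of the type 1 genes 3 passed as higher and 4 as lower in WT (median 0.016), and 3 and 2 in GSDMD-KO lungs (median 0.038). Erythroid genes summed to 15800 to 18200 CPM in WT-RA, 2920 to 4150 CPM in WT-O2, 12700 to 26900 CPM in KO-RA and 5970 to 29900 CPM in KO-O2 lungs. The part of any of these cells in the change of Vegfa was not tested.

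**Figure D1:**
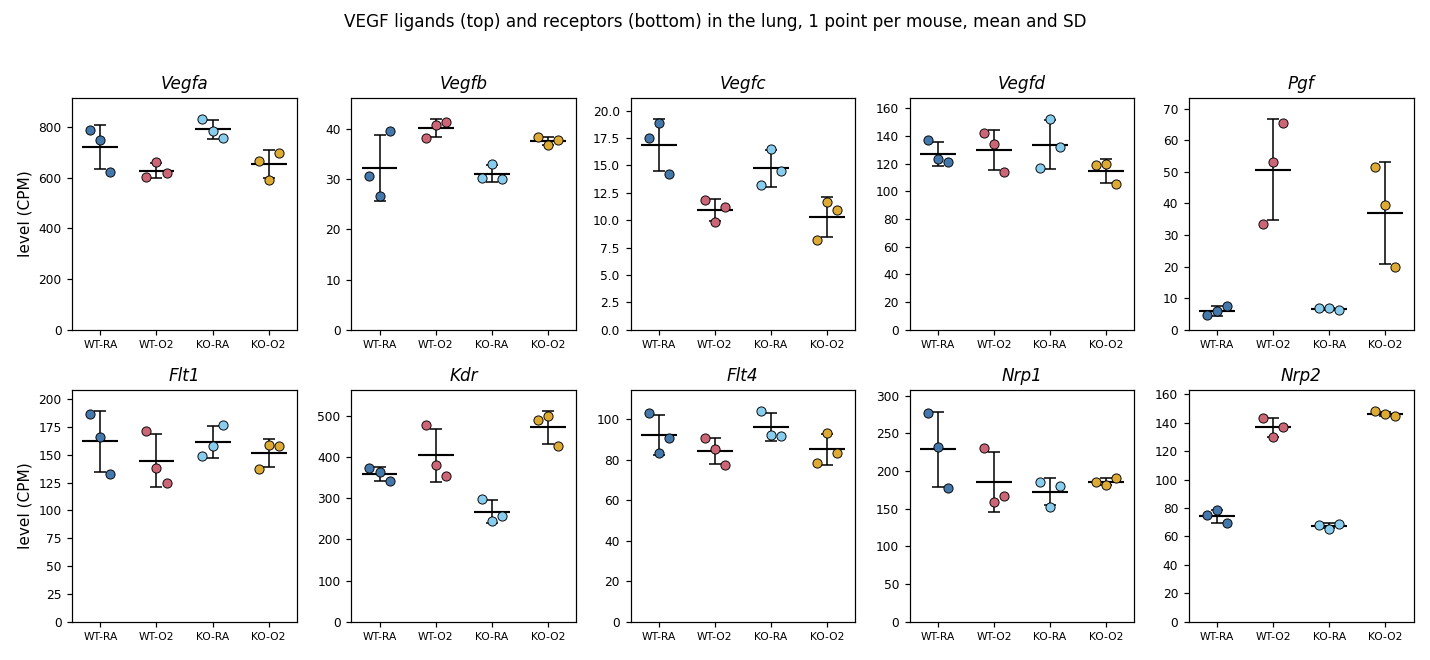
Level in CPM (vertical axis, from 0) of the 5 ligands (top row) and 5 receptors (bottom row) in each of the 12 lungs, by group. Points are mice, the horizontal bar is the mean and the error bar the SD of 3 mice. Pgf and Nrp2 are higher in every exposed lung than in any room-air lung, while Kdr is lowest in KO-RA lungs (246 to 299 CPM).

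Kdr, the main signalling receptor, had the smallest p of the 10 genes between the genotypes in room air and in the interaction. It was 374, 363 and 341 CPM in WT-RA, 478, 381 and 354 CPM in WT-O2, 299, 246 and 258 CPM in KO-RA and 490, 500 and 427 CPM in KO-O2 lungs. The KO-RA lungs were below all others, and the exposed WT lungs overlapped the WT-RA lungs. Hyperoxia raised Kdr by 0.82 ± 0.11 on the log2 scale in GSDMD-KO lungs (1.76-fold, adjusted p = 6.00e-05 by edgeR), while the change in WT lungs was 0.17 ± 0.11 (adjusted p = 0.249). The interaction of genotype and hyperoxia was 0.65 ± 0.16 with an unadjusted p of 0.00112, and it did not pass over all genes (adjusted p = 0.389 by edgeR), where 0.00595% of genes passed. DESeq2 called it with an adjusted p of 0.0334. Nrp2 had the other interaction in the lung with an unadjusted p under 0.05 (0.23 ± 0.099, adjusted p = 0.684 by edgeR). In room air Kdr differed by -0.43 ± 0.11 between KO-RA and WT-RA lungs (adjusted p = 0.162 by edgeR). Sex moved with genotype here, and with a term for sex the room-air difference was -0.26 (adjusted p = 0.681) and the interaction 0.66 (adjusted p = 0.331). With that term the change in WT lungs was 0.25 and passed (adjusted p = 0.0705 by edgeR).

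The other receptors did not pass in the lung. Flt1, the trap receptor, ranged from 125 to 187 CPM over the 12 lungs, with log2 changes of -0.16 ± 0.13 (WT) and -0.10 ± 0.13 (GSDMD-KO). Flt4, the receptor of VEGF-C and VEGF-D, ranged from 77.5 to 104 CPM, with changes of -0.13 ± 0.097 and -0.17 ± 0.097. Nrp1, the coreceptor of VEGF-A, ranged from 152 to 277 CPM, with changes of -0.30 ± 0.16 and 0.11 ± 0.16. In WT lungs, leaving out WT-O2 1 or WT-RA 3 made Flt1 and Nrp1 pass as lower (lowest adjusted p = 0.0823 and 0.0200).

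None of the 10 genes passed between KO-O2 and WT-O2 lungs, a comparison in which 0.0416% of all genes passed (0.0238% with a fold change of at least 2). The unadjusted p was above 0.05 for all 10, and DESeq2 also called 0. The largest difference was that of Pgf, -0.45 ± 0.34, and Kdr stood at 0.22 ± 0.11 and Vegfd at -0.19 ± 0.11. None passed between KO-RA and WT-RA lungs either, where 0.488% of all genes passed (0.137% with a fold change of at least 2), with Kdr and Nrp1 (-0.40 ± 0.16) under an unadjusted p of 0.05. DESeq2 called Kdr in this comparison (adjusted p = 0.0311), and so did edgeR without WT-RA 3, together with Nrp1.

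Most VEGF receptors are endothelial, and in whole tissue fewer cells of a type and less RNA per cell cannot be told apart. The summed level of 18 other endothelial genes (Pecam1, Cdh5, Tie1, Tek and others, all above 1 CPM in every group) was 6630 to 7130 CPM in WT-RA, 4880 to 5360 CPM in WT-O2, 6160 to 6770 CPM in KO-RA and 4510 to 5520 CPM in KO-O2 lungs, lower in every exposed lung than in any room-air lung. Of these 18 genes 4 were higher and 12 lower in WT and 1 higher and 11 lower in GSDMD-KO lungs. All 6 general capillary genes passed in both genotypes, 1 higher and 5 lower, with a median of -2.35 in WT lungs, and Glp1r and Aplnr fell by 4.50 ± 0.14 and 3.38 ± 0.22. Against this sum Kdr and Nrp2 stood higher after exposure in every lung. Kdr was 52.4, 54.8 and 49.5 CPM per 1000 CPM of that sum in WT-RA lungs and 89.2, 78.0 and 67.6 in WT-O2 lungs, and went from 46.6, 36.3 and 41.9 in KO-RA to 95.5, 90.6 and 94.7 in KO-O2 lungs. Nrp2 went from 10.1 to 11.8 in WT-RA lungs to 26.3 to 26.8 in WT-O2 lungs. Flt4 went from a mean of 13.4 to 16.4 in WT lungs without overlap, and Flt1 and Nrp1 overlapped between WT-RA and WT-O2 lungs. These ratios are descriptions, and the part that cell composition has in the receptor levels was not tested.

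In the WT retina, several days after the return to room air, 4 of the 10 genes passed as higher and 0 as lower by edgeR. These were the ligands Vegfa and Pgf, the receptor Kdr and the coreceptor Nrp1, where 5.16% of all tested genes passed (3.11% higher and 2.05% lower). With a fold change of at least 2 as well, Vegfa and Pgf remained, where 2.04% of all genes did. In GSDMD-KO retinas Vegfa was the single gene that passed, where 7.82% of all genes passed (4.38% higher and 3.44% lower). Its fold change of 1.996 was just under 2, a size that 2.19% of all genes reached and passed. The median log2 change of the 10 genes was 0.40 in WT and 0.11 in GSDMD-KO retinas, against medians of 0.0009 and 0.0007 over all genes.

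Vegfa, known in general as a hypoxia-induced signal for vessel growth, was 256, 234 and 246 CPM in WT-RA and 595, 613 and 548 CPM in WT-O2 retinas. In GSDMD-KO retinas it was 183, 259 and 222 CPM in room air and 477, 451 and 397 CPM after hyperoxia. The room-air and exposed retinas were far apart in both genotypes, and the KO-O2 retinas lay below the WT-O2 retinas. The log2 rise was 1.25 ± 0.13 (2.39-fold, adjusted p = 0.00118 by edgeR) in WT and 1.00 ± 0.13 (adjusted p = 0.00381) in GSDMD-KO retinas. Without the 3 retinas with lens RNA the rises were 1.19 and 1.00, the WT value resting on WT-RA 1 as the single room-air retina. Without the 2 retinas whose Gsdmd went against the label they were 1.22 and 1.07 (adjusted p = 0.0147 and 0.0118 by edgeR).

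Pgf was 1.50, 1.54 and 2.29 CPM in WT-RA and 7.42, 7.95 and 7.04 CPM in WT-O2 retinas, and 0.645, 1.56 and 2.00 CPM in KO-RA and 1.73, 1.75 and 2.55 CPM in KO-O2 retinas. The 3 WT-O2 retinas stood above all 9 others, and the GSDMD-KO groups overlapped. Its rise in WT retinas was 2.08 ± 0.36 on the log2 scale (4.21-fold, adjusted p = 0.0142 by edgeR), and its change in GSDMD-KO retinas 0.52 ± 0.35 (adjusted p = 0.450). Between the exposed groups Pgf was 3.72-fold lower in KO-O2 than in WT-O2 retinas (log2 -1.89 ± 0.35, adjusted p = 0.0557 by edgeR). That call was lost without any of the WT-O2 retinas, without KO-O2 2 or KO-O2 3 (highest adjusted p = 0.193 by edgeR), without the 3 retinas with lens RNA (-1.90, adjusted p = 0.102) and without the 2 whose Gsdmd went against the label (-2.10, adjusted p = 0.200). The library labelled KO-O2 3, whose Gsdmd was the highest of the GSDMD-KO retinas, had the highest Pgf of its group. The interaction of genotype and hyperoxia for Pgf was -1.56 ± 0.50, with an unadjusted p of 0.00936, and did not pass (adjusted p = 0.294 by edgeR).

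Kdr was 38.3, 34.5 and 35.6 CPM in WT-RA and 49.1, 52.1 and 54.6 CPM in WT-O2 retinas, and 52.2, 40.5 and 43.0 CPM in KO-RA and 43.8, 46.5 and 42.5 CPM in KO-O2 retinas. Exposed WT retinas were above room-air ones, and the GSDMD-KO groups overlapped, with KO-RA 1 the highest of the 6. The rise was 0.52 ± 0.10 on the log2 scale in WT (1.44-fold, adjusted p = 0.0242 by edgeR), and the change in GSDMD-KO retinas was -0.03 ± 0.10 (adjusted p = 0.907). The WT call was lost without the 2 retinas whose Gsdmd went against the label (0.49, adjusted p = 0.141 by edgeR), without WT-RA 2 (adjusted p = 0.103) and with a term for sex (0.52, adjusted p = 0.111). It was also lost without the 3 retinas with lens RNA (0.44), where WT-RA 1 stood alone in its group. The interaction was -0.56 ± 0.14 with an unadjusted p of 0.00253 and did not pass over all genes in edgeR (adjusted p = 0.233), where 0.00522% of genes passed, while DESeq2 called it (adjusted p = 0.0227).

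Nrp1, whose annotated exons overlap the microRNA gene Mir1903 on the same strand, was 5.04, 4.30 and 5.94 CPM in WT-RA and 9.70, 10.4 and 9.49 CPM in WT-O2 retinas. In GSDMD-KO retinas it was 6.40, 6.12 and 6.17 CPM in room air and 7.91, 9.37 and 7.94 CPM after hyperoxia. Exposed and room-air retinas were apart in both genotypes, with a smaller gap in GSDMD-KO mice. The log2 rise in WT was 0.95 ± 0.14 (1.93-fold, adjusted p = 0.00690 by edgeR), and the change in GSDMD-KO retinas was 0.43 ± 0.14 (adjusted p = 0.115). The interaction was -0.52 ± 0.20 (adjusted p = 0.388), and DESeq2 called the GSDMD-KO change (adjusted p = 0.0704).

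**Figure D2:**
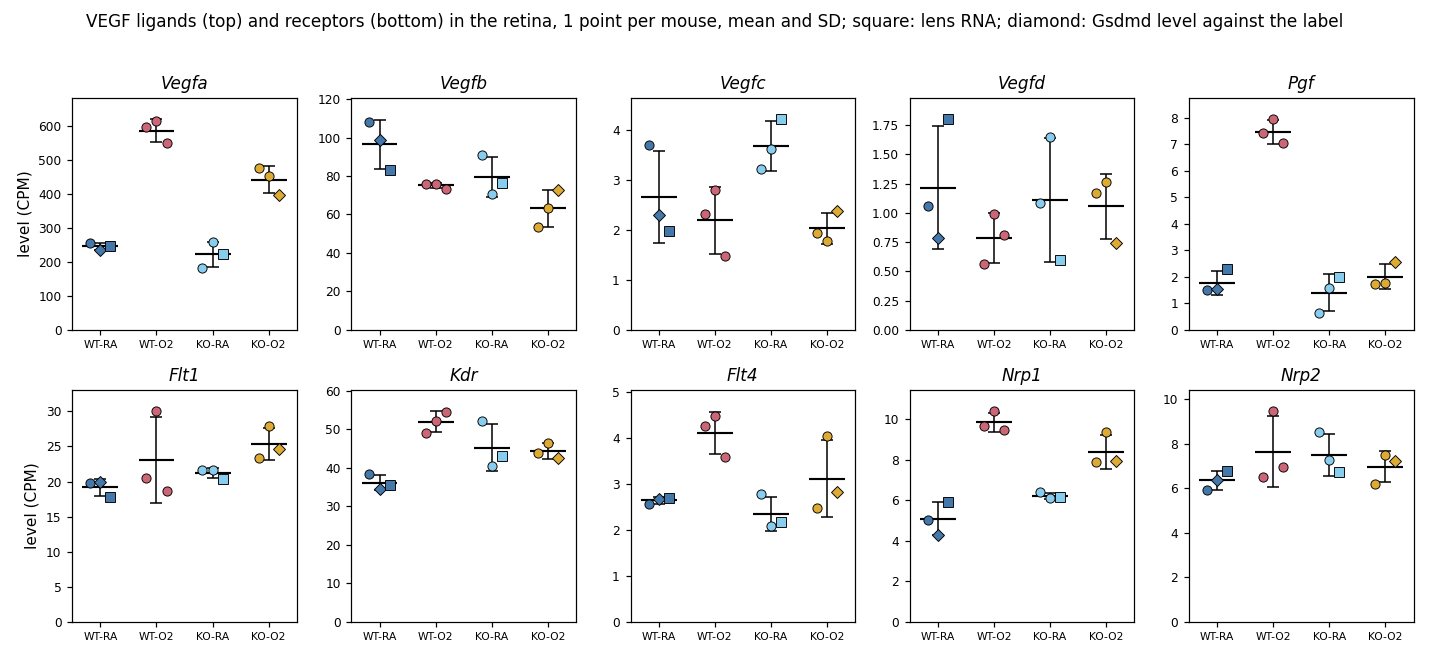
Level in CPM (vertical axis, from 0) of the 5 ligands (top row) and 5 receptors (bottom row) in each of the 12 retinas, by group. Points are mice, bars the mean and SD of 3 mice, squares mark libraries with lens RNA and diamonds those whose Gsdmd level went against the label (WT-RA 2 had both). Vegfa is high in both exposed groups, whereas Pgf is high in the 3 WT-O2 retinas (7.04 to 7.95 CPM).

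The 6 remaining genes did not pass in the retina by edgeR over all samples. Vegfb was 82.9 to 108 CPM in WT-RA and 73.4 to 76.0 CPM in WT-O2 retinas, a change of -0.37 ± 0.13 (adjusted p = 0.184 by edgeR), and its change in GSDMD-KO retinas was -0.33 ± 0.13, so its point estimates pointed down where those of Vegfa pointed up. The WT change passed as lower with DESeq2 (adjusted p = 0.0987) and in edgeR without WT-RA 3 (adjusted p = 0.0957). Vegfc was 3.23 to 4.22 CPM in KO-RA and 1.77 to 2.38 CPM in KO-O2 retinas, a change of -0.86 ± 0.30 (adjusted p = 0.140). Vegfd did not exceed 1.80 CPM in any retina and had standard errors of 0.47 in each genotype, so that changes of moderate size were not detectable with 3 mice per group. Flt4 was 2.56 to 2.69 CPM in WT-RA and 3.59 to 4.48 CPM in WT-O2 retinas (0.63 ± 0.22, adjusted p = 0.171). Flt1 ranged from 17.8 to 30.0 CPM and Nrp2 from 5.92 to 9.45 CPM over the 12 retinas, with changes of 0.27 ± 0.16 and 0.27 ± 0.17 in WT.

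**Figure D3:**
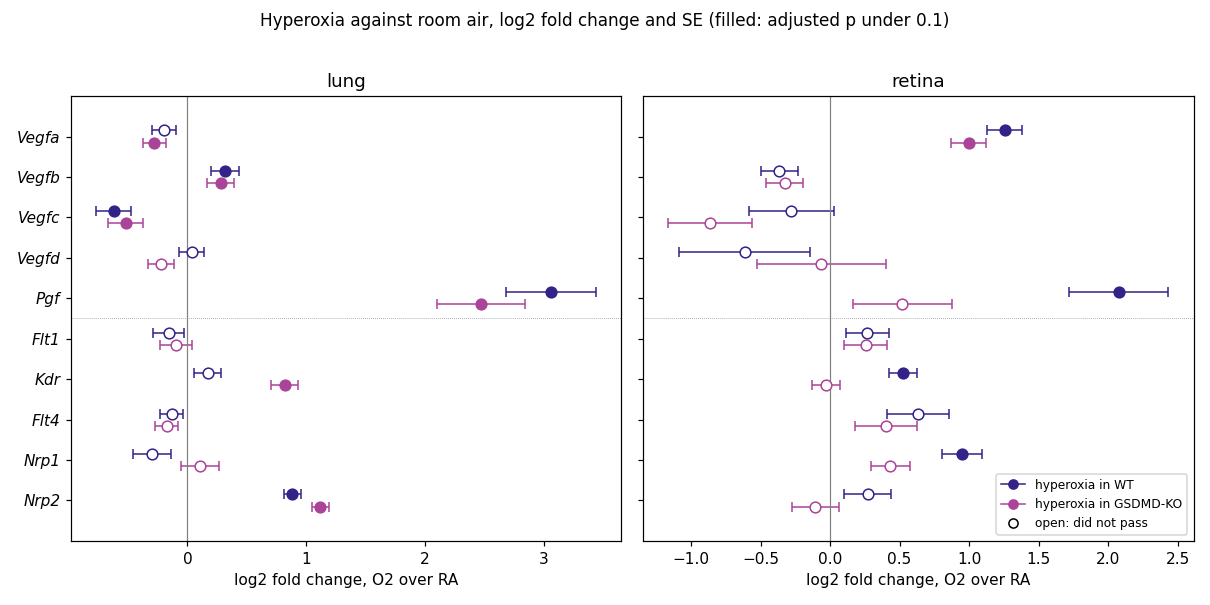
Log2 fold change of exposed over room-air mice (horizontal axis) for each gene in the lung (left) and the retina (right), in WT and GSDMD-KO mice. Points are edgeR estimates, bars are standard errors, and filled points passed at an adjusted p under 0.1. Pgf lies at 3.06 and 2.47 in the lung, and at 2.08 in WT and 0.52 in GSDMD-KO retinas.

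Between KO-O2 and WT-O2 retinas Pgf was the single member that passed, where 1.27% of all genes did (0.292% with a fold change of at least 2). Vegfa was 1.32-fold lower (log2 -0.41 ± 0.13) with every KO-O2 retina below every WT-O2 retina, and did not pass in edgeR (adjusted p = 0.197, at an unadjusted value of 0.00774), while DESeq2 called it (adjusted p = 0.0216). Kdr stood at -0.23 ± 0.10 (adjusted p = 0.377). The median of the 10 genes was -0.23 against 0.01 over all genes. Other lists also had medians below 0 in this comparison, the 18 endothelial genes at -0.35 and the pericyte genes at -0.24. Some lay above 0, such as genes of Mueller glia at 0.14. Erythroid genes moved with this comparison, with 371 to 430 CPM in KO-O2 and 983 to 1550 CPM in WT-O2 retinas for the summed list of which 8 of 9 genes were listed (Slc4a1 under 1 CPM in each group), and their part in these differences was not tested. Between KO-RA and WT-RA retinas none of the 10 genes passed, nor did almost any gene (0.00522% of all, and 0.00522% with a fold change of at least 2). The unadjusted p was under 0.05 for Kdr alone, at 0.32 ± 0.10 (adjusted p = 0.262 by edgeR), which DESeq2 called (adjusted p = 0.0941). Without the lens libraries, with WT-RA 1 alone in its group, the difference of Kdr was 0.27. No interaction passed in the retina by edgeR, and the unadjusted p was under 0.05 for Pgf, Kdr and Nrp1. The comparisons share groups with each other, WT-O2 retinas for example entering both the hyperoxia and the genotype comparison, so the high Pgf of those 3 retinas shows in each.

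**Figure D4:**
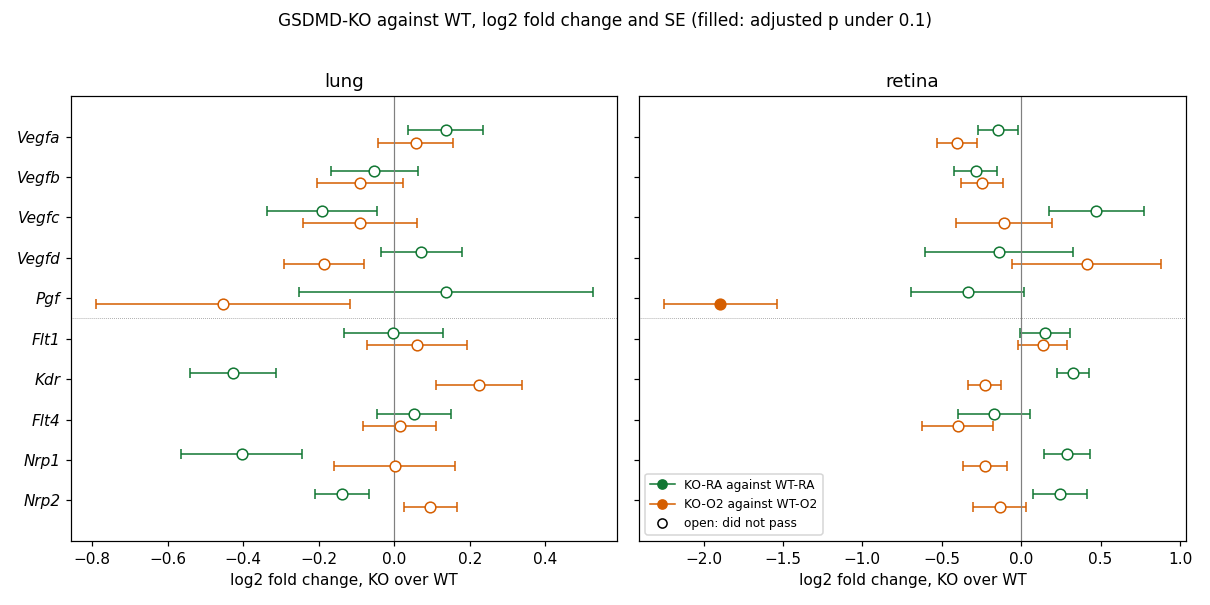
Log2 fold change of GSDMD-KO over WT mice (horizontal axis) for each gene in room air and after hyperoxia, in the lung (left) and the retina (right). Points are edgeR estimates, bars are standard errors, and filled points passed at an adjusted p under 0.1. The single filled point is Pgf in exposed retinas at -1.89, and Kdr in room air lies at -0.43 in the lung and 0.32 in the retina.

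In the exposed retina the endothelial genes passed in the upward direction. The 18 endothelial genes summed to 191 to 233 CPM in WT-RA, 396 to 483 CPM in WT-O2, 180 to 221 CPM in KO-RA and 325 to 368 CPM in KO-O2 retinas. Of them 13 were higher and 0 lower in WT (median 1.16) and 12 higher and 0 lower in GSDMD-KO retinas (median 0.83), Ecscr, an endothelial surface protein, rising by 2.83 ± 0.27 and 1.95 ± 0.26. Against this sum Kdr was 164, 180 and 156 CPM per 1000 CPM in WT-RA and 102, 128 and 138 in WT-O2 retinas, so it stood lower although its own level was higher. Flt1 went from a mean of 89.0 to 54.4 and Nrp2 from 29.4 to 18.1 per 1000 CPM. Nrp1 was level, with means of 23.4 in WT-RA and 23.1 in WT-O2 retinas. In GSDMD-KO retinas Kdr went from a mean of 227 to 130. Pericyte genes (7 of 10 higher in WT, 4 of 10 in GSDMD-KO) and microglial genes (6 and 7 of 12 higher) moved in the same direction, and the part that any of these cells had in the receptor levels was not tested.

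**Figure D5:**
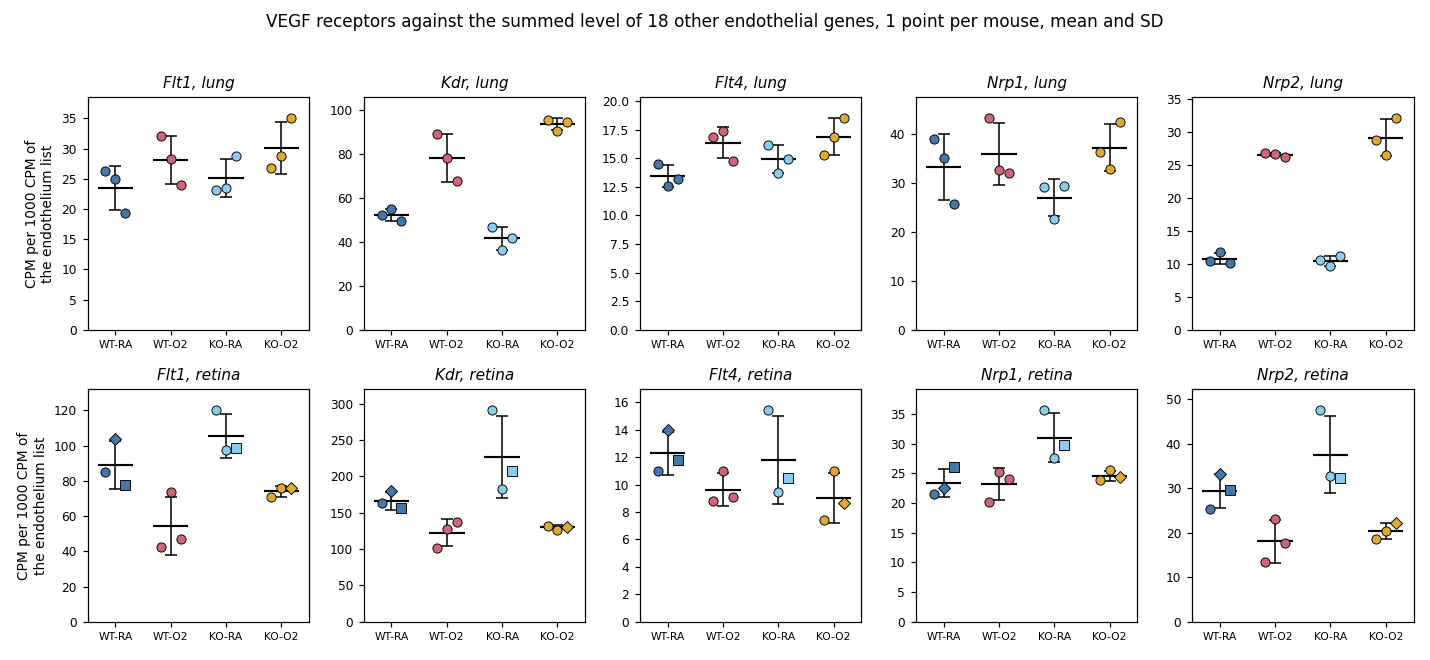
CPM of each receptor per 1000 CPM of the summed 18 endothelial genes (vertical axis, from 0) in the 12 lungs (top row) and the 12 retinas (bottom row). Points are mice, bars the mean and SD of 3 mice, with squares and diamonds as in the plot of retina levels. Kdr and Nrp2 stand higher after exposure in the lung, whereas mean Kdr goes from 167 to 122 in WT retinas.

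Other genes of the pathway were read from lists written from general knowledge. Endothelial genes that VEGF induces passed as higher for 12 and lower for 3 of 24 in WT lungs (median 0.77) and for 15 and 3 of 24 in GSDMD-KO lungs (median 0.78), led in WT by Angpt2 (1.77 ± 0.11), the destabilizing ligand of TIE2, by the protease gene Plau (2.32 ± 0.16) and by the peptide ligand Apln (2.38 ± 0.16). In the retina 9 of 23 were higher and 0 lower in WT (median 0.46) and 10 were higher and 1 lower in GSDMD-KO retinas (median 0.68), with Apln up by 3.44 ± 0.28 and 2.97 ± 0.28 and the tip cell gene Esm1 by 4.70 ± 0.73 and 5.37 ± 0.81. Genes that hypoxia induces through HIF were higher for 13 and lower for 4 of 24 in WT lungs (median 0.56) and for 12 and 5 of 24 in GSDMD-KO lungs (median 0.28), among them the glycolytic enzyme Pgk1 (0.86 ± 0.072 in WT). In the retina 6 of 25 identifiers, for 24 genes with Aldoa listed under 2, were higher and 0 lower in each genotype (medians 0.27 and 0.15), with the vasodilator peptide gene Adm up by 3.72 ± 0.25 in WT and 3.09 ± 0.25 in GSDMD-KO mice. Oxygen-sensing genes gave 5 higher and 4 lower of 14 in WT lungs and 4 and 3 in GSDMD-KO lungs (medians 0.10 and -0.042), with Hif1a up by 1.12 ± 0.091 and Epas1, the endothelial HIF subunit, down (log2 -1.24 ± 0.13) in WT. In the retina 1 of 14 was higher in each genotype (medians 0.018 and -0.0022), the HIF prolyl hydroxylase Egln3 (1.70 ± 0.22 and 1.62 ± 0.22). Egln3 also rose in WT lungs (1.19 ± 0.27), where the change of Vegfa did not pass (-0.20 ± 0.099, adjusted p = 0.123 by edgeR). A link between the 2 genes was not tested.

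Genes that carry the signal of the receptors were higher for 8 and lower for 11 of 34 in WT lungs and for 10 and 10 in GSDMD-KO lungs (medians -0.0015 and -0.042), among them Plcg1, the phospholipase that binds activated KDR, at -0.45 ± 0.069 in WT. In the retina 0 were higher and 1 lower of 33 in WT, the kinase gene Prkcb (-0.67 ± 0.11), and 1 higher and 2 lower in GSDMD-KO mice (medians -0.019 and -0.031). Receptor partners and phosphatases were higher for 4 and lower for 8 of 16 in WT lungs and 4 and 7 in GSDMD-KO lungs (medians -0.38 and -0.17), with Tek at -2.47 ± 0.12 and Cav1, the caveolin of endothelial membranes, at -1.34 ± 0.11 in WT. In the retina 5 of 16 were higher and 0 lower in WT and 2 and 0 in GSDMD-KO mice (medians 0.17 and 0.016), led by the junction cadherin Cdh5 (1.52 ± 0.20) in WT and Tie1 (0.91 ± 0.15) in GSDMD-KO mice. Cav1 was lower in KO-O2 than in WT-O2 retinas (-0.79 ± 0.11, adjusted p = 0.021 by edgeR), 1 of 16 in that comparison. Semaphorins and plexins, which share the neuropilins with VEGF, were higher for 7 and lower for 3 of 12 in each genotype of lungs (medians 0.53 in WT and 0.34 in GSDMD-KO), with Sema3g at -2.30 ± 0.14 in WT. In the retina 1 was higher and 0 lower in WT and 1 higher and 2 lower in GSDMD-KO mice (medians -0.0071 and 0.17), Plxnd1 (1.22 ± 0.17 and 1.24 ± 0.17) in both. Genes that process or bind the ligands outside the cell were higher for 10 and lower for 0 of 19 in each genotype of lungs (medians 0.36 and 0.32), with the protease Mmp2 at 1.21 ± 0.12 and the matrix protein Thbs1 at 2.49 ± 0.29 in WT. In the retina 2 and 3 of 19 were higher and 0 lower in WT and GSDMD-KO mice (medians 0.26 and 0.22). They were led by Pdgfb (1.20 ± 0.21 and 1.38 ± 0.21). That listed gene encodes a separate growth factor rather than a protein that processes or binds VEGF. Each list's share is to be read beside the 49.2% and 46.7% of all genes that passed in the lung and the 5.16% and 7.82% in the retina.

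The genes whose levels ran most closely with a member over the 12 samples of a tissue were sought among those averaging 1 CPM or more, as a description over samples that share the exposure. In the retina Vegfa ran with Abcc9 (Pearson r = 0.991), Litaf (0.983) and Adm (0.980), and Nrp1 with the endothelial cadherin Cdh5 (0.979), Hsd17b2 (0.970) and Gng11 (0.962). Retinal Pgf ran with Arhgef2 (0.979), Ube2c (0.922) and Tgif1 (0.921), and retinal Kdr with Amotl2 (0.908), Arhgap42 (0.900) and Arpin (0.875). In the lung Nrp2 ran with Exoc4 (0.995), Sulf2 (0.994) and Kif1a (0.994), Pgf with Tubb6 (0.994), Mthfd2 (0.992) and Cnksr3 (0.990), Kdr with Cd177 (0.931), Pik3cg (0.931) and Aqr (0.929), and Vegfa with Gm11839 (0.956), Wdr48 (0.932) and Mau2 (0.920). No gene is among the 3 of the same member in both tissues.

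The promoters of the members are shown because HIF, which binds a short core motif, is the textbook inducer of Vegfa, Pgf and Flt1. The letters ACGTG and GCGTG were searched on both strands of the 250 bases before each RefSeq transcript start (GRCm38.p6). The E-box CACGTG contains the former motif and was not kept apart. All 10 members had a window, 12 windows in all, and 7 windows of 7 members held a match, against 38.6% of the 32851 windows of all genes. No match was found in the windows of Vegfc, Vegfd and Flt4, nor in the first Vegfa window (chr17:46032378-46032627, minus strand), which says only that these letters are not in these bases. For the 4 genes that rose in the WT retina, and for Nrp2, which rose in the lung, 1 match each is printed 5′ to 3′ on the gene's strand with the motif or its reverse complement in capitals. They lie at chr17:46025367-46025391 for Vegfa, at chr12:85177423-85177447 for Pgf and chr5:75978530-75978554 for Kdr, all on the minus strand, and at chr8:128358897-128358921 for Nrp1 and chr1:62703147-62703171 for Nrp2 on the plus strand. The Vegfa, Pgf and Nrp1 stretches lie before starts inside the annotated bounds of their genes. The windows of Vegfa, Pgf, Kdr and Nrp2 that held these matches overlap annotated exons, so part of their bases is exon sequence. The Vegfa stretch comes from a window inside the gene, and the window just before the gene's annotated 5′ end held no match. That stretch may itself be exon sequence, which was not looked at, so it is not to be read as a promoter motif of Vegfa.
Vegfa: gccctggagtGCGTGcccacgtcag
Pgf: cctgcggggtCACGCgcactcaggt
Kdr: ccagtgggggGCGTGgccggacgca
Nrp1: accgggaaagCACGCggagagaaac
Nrp2: cggcagggttGCGTGgcaccttaac
The Vegfa stretch holds a further match, cacgt, in lower case. Flt1, which did not pass in either tissue, and Vegfb, which rose in the lung, also held a match, so the motif was found in members that passed and in 1 that did not. No binding was measured here.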

How the data were processed

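RNA of 12 lungs and 12 retinas was sequenced by BGI. The authors checked reads with FastQC, quantified transcripts with kallisto and combined them into genes with tximport. For each tissue the authors deposited a table of expected counts (estimated counts), with no scaling to library size. The labels name the mm10 build and the study's supplementary methods name GRCm39. Coordinates here are GRCm38 from GENCODE M21 and were not used for counting. Values above 0 lay within 0.001 of a whole number in 44.9% of lung and 0.35% of retina entries, so the tables may have been scaled differently, and all tests were made within a tissue. Counts per gene do not separate the splice forms of Vegfa or the soluble form of Flt1.

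Symbols were given to 35816 of 36109 lung and 35968 of 36595 retina identifiers. Counts were rounded and fitted in R 4.3.3 with edgeR 4.0.16 (TMM, filterByExpr by group, glmQLFit with robust=TRUE, glmQLFTest) with a term per group over the 12 samples of a tissue, and adjusted by Benjamini-Hochberg over the genes tested in a contrast. Contrasts were O2 against RA within each genotype, KO against WT within each exposure, and the interaction between them. Standard errors were obtained by dividing the size of a log2 fold change by the root of its F. Levels are CPM with TMM factors. A mouse was counted as male above 20 CPM summed over Y-linked genes. The steps were tested on simulated data. Each sample is a mouse of its own, numbered here in accession order, so no samples were paired. Replicates of a group differed by more than sampling noise in every pair.

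All 10 members are named, and of each gene list its counts, its median and at most the 3 genes with the smallest p. Genes of like pattern are, for each member, the 3 of highest Pearson correlation of log2 CPM (prior count 2). The members and lists were chosen with earlier results of these data known. Alternatives were RLE normalization, no filter, unrounded counts, DESeq2 1.42.0, limma-voom (limma 3.58.1), a fit of the compared groups alone, a term for sex and leaving out each replicate. Leaving out the 3 retinas with lens RNA, and the 2 whose Gsdmd went against the label, was added after seeing the data. The latter were taken as the WT retina with the lowest and the GSDMD-KO retina with the highest Gsdmd, a rule that picks 2 libraries in any data. Precision is set by the spread between 3 mice, and for genes of a few CPM also by counting error.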

Additional observations from a re-analysis of the deposited data

Results flagged for a closer look

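Vegfa moved in opposite directions in the tissues of GSDMD-KO mice. Its log2 fold change after hyperoxia was -0.28 in the lung, where the 3 KO-O2 lungs (591 to 698 CPM) lay below the 3 KO-RA lungs (756 to 830 CPM), and 1.00 in the retina, where the 3 KO-O2 retinas (397 to 477 CPM) lay above the 3 KO-RA retinas (183 to 259 CPM). The lung call was lost without KO-O2 2 or KO-RA 1. The WT estimates pointed the same ways, at -0.20 in the lung, which did not pass, and 1.25 in the retina. The interaction of genotype and hyperoxia did not pass in the lung (-0.08, adjusted p = 0.965 by edgeR) or the retina (-0.26, adjusted p = 0.631). The difference between the tissues was not tested, since their tables were made separately and the exposures differ in oxygen level, in duration and in the time between exposure and collection.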

How the results depend on the processing

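Of 1980 values of single genes under the alternatives, 1935 kept their side of the threshold, 22 passed newly and 23 no longer passed. None that passed was reversed, and of the 1642 that passed in neither fit 66 changed sign. The rise of Pgf and Nrp2 and the fall of Vegfc in both genotypes of lungs, and the rise of Kdr in GSDMD-KO lungs, passed under every alternative run. So did the rise of Vegfa in both genotypes of retinas, and of Pgf and Nrp1 in WT retinas. For the retina these runs include the fit without the 3 retinas with lens RNA, where WT-RA 1 stood alone in its group. With DESeq2 the number of members passing was 1 in place of 0 between KO-RA and WT-RA lungs, in the lung interaction, between KO-RA and WT-RA retinas and in the retina interaction (Kdr in all 4), 5 in place of 4 for hyperoxia in WT retinas (Vegfb added), and 2 in place of 1 for hyperoxia in GSDMD-KO retinas (Vegfa and Nrp1) and between KO-O2 and WT-O2 retinas (Vegfa and Pgf). Leaving out single mice gave 3 to 7 members for hyperoxia in WT lungs (7 without WT-RA 3), 4 to 7 in GSDMD-KO lungs, 0 to 2 between KO-RA and WT-RA lungs (2 without WT-RA 3), 3 to 5 in WT retinas, 1 to 2 in GSDMD-KO retinas (Vegfc was added without WT-RA 1 and Nrp1 without WT-RA 3) and 0 to 1 between KO-O2 and WT-O2 retinas. Pgf in the last comparison was also lost, leaving 0, without the 3 retinas with lens RNA and without the 2 retinas whose Gsdmd went against the label. Leaving samples out gives fewer mice per fit, and beyond that the cause was not tested. No paired analysis was possible because the replicate numbers here name mice in accession order. Vegfd, Vegfc, Pgf and Flt4 were under 8 CPM in every retina, where counting error is largest, and its share in their spread was not tested.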
